A study of Rattus norvegicus with 18 samples.

Results

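Composite peaks are the intervals of an ATAC-seq peak list into which at least 4 separately called peaks appear to have been joined. They were chosen by the value in the fourth column of the deposited list, a whole number from 1 to 10 that the study does not describe and that is taken here to count how many peaks, over the 3 culture systems, went into the interval. Every peak on chromosomes 1 to 20 with a value of 4 or more was taken, whatever its length. This gave 1021 composite peaks among 187393 peaks on these chromosomes, a share of 0.545% (Wilson 95% confidence interval 0.513 to 0.579%), and the whole list held 192830 peaks. All positions are on the rat assembly Rn6 and are counted from 1.

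The list was made from 18 ATAC-seq libraries of neurons cultured from the cortex, hippocampus or striatum of Sprague-Dawley rats, prepared at embryonic day 18 and kept for 11 days in vitro. Each culture system gave 3 libraries treated with vehicle (Neurobasal medium) and 3 treated with KCl, which depolarizes neurons, all for 1 h. The sample labels give 25 mM KCl and the design text of the series gives 10 mM. The authors pooled the 6 libraries of a culture system across both treatments before calling peaks, so the list has no values per library, the depth behind each peak is unknown, and no test was run. The intervals given for shares and medians therefore describe variation between peaks, which they treat as independent, and not variation between cultures.

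In ATAC-seq, a transposase cuts and tags DNA that is not wrapped in nucleosomes, and stretches that gather many insertions are called as peaks. In neurons, such open chromatin marks promoters, where transcription of genes begins, and enhancers, distal elements that raise the transcription of a gene and are often transcribed themselves into enhancer RNA. Elements can lie so close together along a chromosome that their peaks run into a single interval.

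A few sequences tied to composite peaks are shown first. They belong to elements that could be looked up in the study's lists of guides, enhancers and genes, which cover few of the composite peaks. A composite peak at chr6:109312441-109315195, with a value of 4 and a length of 2755 bp, is Fos enhancer-3, an enhancer of the immediate early gene Fos, which encodes a subunit of the AP-1 transcription factor. The CRISPR guide designed for this enhancer is listed at position 109312925, 484 bp from the start of the peak, and was the only one of 15 listed guide positions that fell in a composite peak. Primers for the RNA transcribed from the enhancer, and the 150-base stretch of that RNA used as a designed insert, are given with it. Their place within the peak was not checked, as no Rn6 sequence was used here.
Fos enhancer-3 guide: gggtgggggcctctgacggg
Fos eRNA3 forward primer: gagagtgccgaaaaggaggg
Fos eRNA3 reverse primer: acaaccttgcaggctgatga
Fos eRNA3 insert: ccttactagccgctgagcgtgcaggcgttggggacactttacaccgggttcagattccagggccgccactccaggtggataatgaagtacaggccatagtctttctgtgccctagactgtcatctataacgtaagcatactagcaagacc

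Another composite peak, at chr3:83136126-83140083, with a value of 4 and a length of 3958 bp, covered the whole of Mir129-2, a microRNA gene expressed in brain. The mature microRNAs of this gene are printed from RefSeq (GRCr8, minus strand) with the seed, bases 2 to 8, in capitals. The arms lie at chr3:100657448-100657468 and chr3:100657405-100657426 of that assembly, whose positions are not those of Rn6.
rno-miR-129-5p: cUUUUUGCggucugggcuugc
rno-miR-129-2-3p: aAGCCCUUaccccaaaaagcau

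The composite peak at chr17:12260645-12265630, with a value of 4 and a length of 4986 bp, lay over the start of Nfil3, which encodes a basic leucine zipper repressor of transcription. Its RefSeq promoter, 250 bases before to 50 bases after the start of the gene (GRCr8, chr17:12432126-12432425, plus strand), is printed because the peak holds the start, although the starts used in the Rn6 and GRCr8 annotations were not compared. Both strands were searched for the cyclic AMP response element TGACGTCA, for its core TGACG, which overlaps it, and for the AP-1 site TGANTCA. The promoter held 0 matches to TGACGTCA, 1 to TGACG, in capitals, and 0 to TGANTCA. Among 33469 promoters of the same length, 1.83% held the first motif, 21.2% the second and 7.33% the third, so the match to the core is a common one.
Nfil3 promoter: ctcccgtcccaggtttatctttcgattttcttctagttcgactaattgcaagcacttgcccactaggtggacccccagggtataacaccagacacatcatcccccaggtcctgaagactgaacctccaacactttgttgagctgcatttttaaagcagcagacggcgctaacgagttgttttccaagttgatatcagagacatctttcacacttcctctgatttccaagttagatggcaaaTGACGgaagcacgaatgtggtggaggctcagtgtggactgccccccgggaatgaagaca

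The value that chose the members fell off steeply above the threshold. Of the 1021 composite peaks, 784 had a value of 4, just inside the threshold, 217 had 5, 12 had 6, 7 had 7, none had 8 or 9 and 1 had 10. Just outside it, 35078 peaks had a value of 3, so that about 29.1 composite peaks were listed per 1000 peaks with a value of 3. If the value counts merged peaks, it sets a smallest length, because peaks of 1 culture system no more than 1000 bp apart had already been joined. A value of 7 needs at least 3 peaks from 1 culture system and so at least 2440 bp, and a value of 10 needs 4 and at least 3587 bp. The shortest peak with a value of 7 measured 4385 bp and the peak with a value of 10 measured 26244 bp. Both lie far above these lengths. A value of 4 needs at least 1293 bp, a length under which 0 of the 1021 composite peaks and 49.3% of the value-3 peaks fell. As the value chose the members, this is a description of the reading and not a test of it.

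Composite peaks were long. Their median length was 3180 bp (95% interval from order statistics, 3119 to 3279 bp). The quartiles were 2644 and 4014 bp and the extremes 1492 and 26955 bp. Peaks with a value of 3 had a median of 1303 bp, and 0 of the 1021 composite peaks were shorter than that. Length is tied to the choice of members, since peaks that join more intervals must span them, and is given as a description.

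Within the composite peaks, length rose with the value. The median was 3040 bp at a value of 4 (95% interval 2951 to 3115 bp), 3864 bp at 5 (3643 to 4014 bp), and 8033 bp over the 20 peaks at 6 or more (6304 to 10582 bp). The value chose the members and, if it counts merged peaks, sets a smallest length, so this rise is a description and no finding of its own. A length of 4000 bp or more was reached by 143 peaks at a value of 4, by 95 at 5 and by all 20 at 6 or more, 258 in all and 25.3% of the composite peaks. Among peaks with a value of 3, the share was 0.992%. Long peaks were nevertheless not all composite: of 624 peaks of 4000 bp or more, 41.3% had a value of 4 or more, and of 44 peaks of 10000 bp or more, 21 did. Composite peaks made up 0.545% of the peaks and 2.43% of the sequence that all peaks covered.

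**Figure D1:**
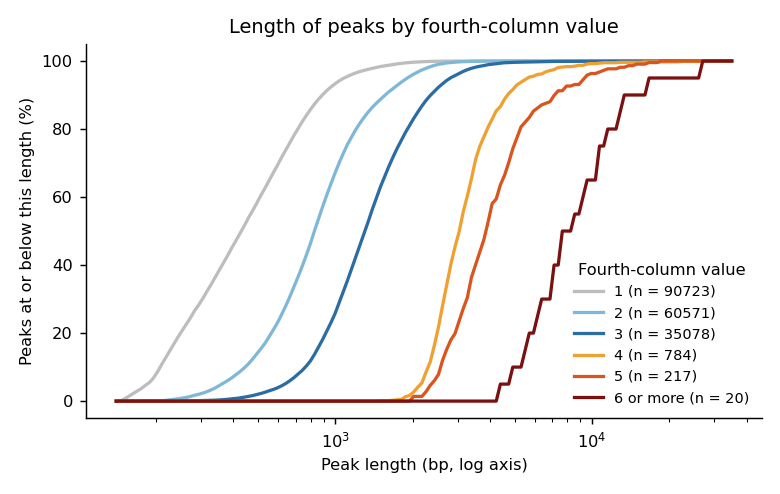
Cumulative share of peaks on chromosomes 1 to 20 (vertical axis, %) at or below a given length (horizontal axis, bp, log scale), with a line for each fourth-column value and the number of peaks in the legend. The lines shift to the right from 1 to 6 or more, with medians of 1303 bp at 3, 3040 bp at 4, 3864 bp at 5 and 8033 bp at 6 or more.

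The 5 longest composite peaks lay on 4 chromosomes, and 2 of them were neighbours. The longest, at chr1:39517901-39544855, measured 26955 bp and had a value of 4. At 17277 bp from it, with no other peak between, lay the single peak with a value of 10, at chr1:39474380-39500623, which was also the second in length at 26244 bp. The next were chr7:22274115-22295895 with 21781 bp and a value of 4, chr15:50049225-50067394 with 18170 bp and a value of 5, and chr13:33318973-33335457 with 16485 bp and a value of 5. The value and the length thus did not rank these peaks alike, since 2 of the 5 had the lowest value a composite peak can have. The 3 shortest all had a value of 4 and measured 1492 bp (chr19:36155668-36157159), 1621 bp (chr7:22646022-22647642) and 1706 bp (chr2:20160597-20162302).

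The 7 peaks with a value of 7 were spread over 5 chromosomes. The 3 on chromosome 1 were chr1:11903620-11916204 with 12585 bp, chr1:148620593-148636968 with 16376 bp and chr1:218099837-218104221 with 4385 bp. The others were chr9:4088641-4098952 with 10312 bp, chr12:13801500-13808486 with 6987 bp, chr15:5525407-5536555 with 11149 bp and chr20:133085-141490 with 8406 bp. Their surroundings differed widely, from 4 other peaks within 100 kb at chr1:148620593-148636968 to 32 at chr15:5525407-5536555. Another composite peak lay within 100 kb of 3 of the 7, the nearest only 1129 bp from the peak on chromosome 9, whereas the nearest to the peak on chromosome 12 was 3847 kb away.

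Composite peaks were unevenly distributed over the chromosomes. Relative to all peaks, 5.45 per 1000 were composite (95% interval 5.13 to 5.79), and the share on single chromosomes ran from 3.58 on chromosome 11, with 22 of 6151 peaks (2.36 to 5.41), to 12.9 on chromosome 19, with 64 of 4965 (10.1 to 16.4). The interval lay above 5.45 on 3 of the 20 chromosomes: 19, 16 with 7.81 (5.94 to 10.2) and 7 with 7.77 (6.28 to 9.62). It lay below on 3 others: 11, 13 with 3.72 (2.56 to 5.41) and 4 with 3.74 (2.83 to 4.94). With 20 intervals examined together, single ones can miss the common value by counting error, and the intervals of chromosomes 11 and 13 missed it narrowly, whereas that of chromosome 19 lay far from it. Without chromosome 19, the share over the other chromosomes was 5.25 per 1000 (4.92 to 5.59). Relative to value-3 peaks instead of all peaks, the order changed at the low end. Composite peaks then ran from 22.3 per 1000 value-3 peaks on chromosome 3 to 55.0 on chromosome 19, against 29.1 over all 20 chromosomes. The ratio of chromosome 19 to all chromosomes was 1.89, instead of 2.37 relative to all peaks. Chromosome 19 also held 79.7 peaks per Mb, counted up to its last peak, and over the 20 chromosomes Spearman's correlation of the share of composite peaks with the number of peaks per Mb was 0.612.

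**Figure D2:**
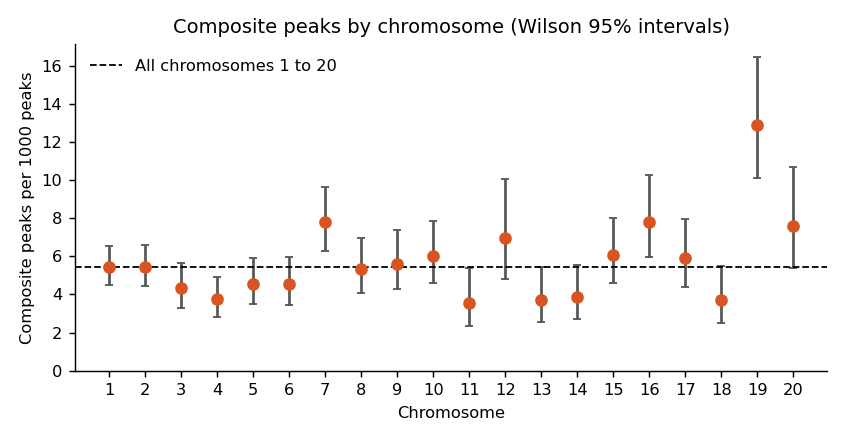
Composite peaks per 1000 peaks (vertical axis) on each of chromosomes 1 to 20 (horizontal axis), with Wilson 95% intervals over peaks and a dashed line at the share over all 20 chromosomes, 5.45 per 1000. Chromosome 19 stands highest at 12.9 and chromosome 11 lowest at 3.58.

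Much of the excess on chromosome 19 came from a single stretch. Between 25 and 30 Mb, 35 of 551 peaks were composite, or 63.5 per 1000, the most in any of 535 bins of 5 Mb that held a peak. The bin from 0 to 5 Mb came next on that chromosome with 6 of 348. Outside these 2 bins, which were picked for their counts, chromosome 19 had 23 composite peaks among 4066, or 5.66 per 1000, close to the value over all chromosomes. Other bins rich in composite peaks were the first 5 Mb of chromosome 7 with 16 of 330 peaks, 20 to 25 Mb of chromosome 7 with 15 of 406 and 20 to 25 Mb of chromosome 16 with 14 of 513. In all, 11 bins held 10 or more composite peaks and together 157 of the 1021, while 151 bins held none. These 11 bins, picked for their counts, held 4753 of the 187393 peaks. The number of peaks in the 151 bins is not given here, so they may be sparse in peaks of any value.

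Composite peaks also lay more often near the start of a chromosome. Within the first 1 Mb there were 38 of them, 3.72% (2.72 to 5.07%), against 1.39% of the peaks with a value of 3. Among value-3 peaks matched on length as well, the share was 3.09%, which lies inside the interval. For this and the following comparisons of position and neighbours, the peaks with a value of 3 were matched on chromosome by weighting each of them, so that every chromosome counted as it does among the composite peaks. The weighted value-3 figures are given without an interval. A value-3 figure outside the composite interval is therefore a description that leaves out its own counting error. Within 1 Mb of the last peak of a chromosome the share was 1.08% (0.603 to 1.92%) against 0.807%, a difference inside the interval.

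Composite peaks lay near one another. The distance from a composite peak to the nearest other composite peak, measured from edge to edge, had a median of 472 kb (95% interval 388 to 544 kb), while peaks with a value of 3, matched on chromosome, lay a median of 748 kb from the nearest composite peak. The lower quartile was 72.0 kb against 229 kb, so the ratio of the distances was further from equal there than at the median. Another composite peak was found within 100 kb of 307 composite peaks, 30.1% (27.3 to 33.0%), against 14.7% for the matched peaks, and within 10 kb of 79, 7.74% (6.25 to 9.54%), against 2.41%. Within 1000 kb the shares were 66.1% and 57.9%. Without chromosome 19, the shares within 100 kb were 27.5% and 13.7%. The share within 100 kb was larger for composite peaks on 16 of the 20 chromosomes, but their median distance was shorter on only 13, and on chromosome 11 it was longer, 1764 kb against 972 kb.

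Nearness was greater at a value of 5 than at 4. Another composite peak lay within 100 kb of 24.9% of the peaks with a value of 4 (22.0 to 28.0%), of 46.1% of those with 5 (39.6 to 52.7%) and of 12 of the 20 with 6 or more (38.7 to 78.1%). The last interval contains that at 5, and the 20 peaks were mixed, with 8 of 12 at a value of 6 and 3 of 7 at 7, so no order can be read above 5. The median distance was 578 kb at 4 and 193 kb at 5. Peaks with values of 1, 2 and 3 had shares of 6.61%, 7.99% and 13.6%, without matching. None of these shares was matched on length, which rises with the value.

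Length moved together with this nearness. When composite peaks were divided by length into 5 classes of about equal number, the share with another composite peak within 100 kb was 21.6% (16.5 to 27.7%) for lengths of 1492 to 2550 bp and 55.6% (48.8 to 62.2%) for 4382 to 26955 bp. Peaks with a value of 3 in the same classes went from 13.0% (12.4 to 13.7%) to 46.2% (39.9 to 52.6%). In the shortest class the intervals of composite and value-3 peaks did not overlap, and in the other 4 they did. For lengths of 3444 to 4375 bp the order was the other way, with 26.0% of composite peaks (20.4 to 32.4%) and 31.6% of value-3 peaks (27.5 to 36.0%). With value-3 peaks weighted by chromosome and length class together, their share within 100 kb was 26.8%, against 30.1% for the 1018 composite peaks that had such counterparts, and their share within 10 kb was 6.0% against 7.76%. The median distance to the nearest composite peak was then 475 kb (394 to 544 kb) for composite peaks and 516 kb for value-3 peaks. The difference in nearness was thus much smaller within length classes than with matching on chromosome alone.

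Lengths were not fully alike within these classes. In the shortest class the median length was 2346 bp for composite peaks and 1831 bp for value-3 peaks. The match was therefore repeated in 3 finer ways, chosen after seeing the data: by 20 or by 50 length classes without chromosome, and by chromosome and 20 length classes with each matched in its totals. The mean lengths of composite and value-3 peaks then differed by at most 27.4 bp, instead of 197 bp with 5 classes. The share of value-3 peaks with a composite peak within 100 kb was 27.2%, 27.1% and 27.7%, the last inside the interval of the composite peaks (27.3 to 33.0%) and the others just below it, as was the share of 26.8% with 5 classes. Within 10 kb the shares were 6.43%, 6.43% and 6.47%, all inside the interval (6.25 to 9.54%), whereas the 6.0% with 5 classes lay below its interval (6.27 to 9.57%). The median distance of 497 to 532 kb lay inside the interval each time. For these shares, whether the value-3 peaks fell outside the interval thus depended on how length was matched, while the direction was the same each time. The value-3 side is also uncertain here, as the longest of the 5 classes held only 234 value-3 peaks for 205 composite peaks. The mean number of composite peaks within 100 kb was 0.631 around composite peaks (0.555 to 0.706). Around value-3 peaks it was 0.514 with 5 classes and 0.531, 0.529 and 0.545 in the finer matches, below the interval each time.

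**Figure D3:**
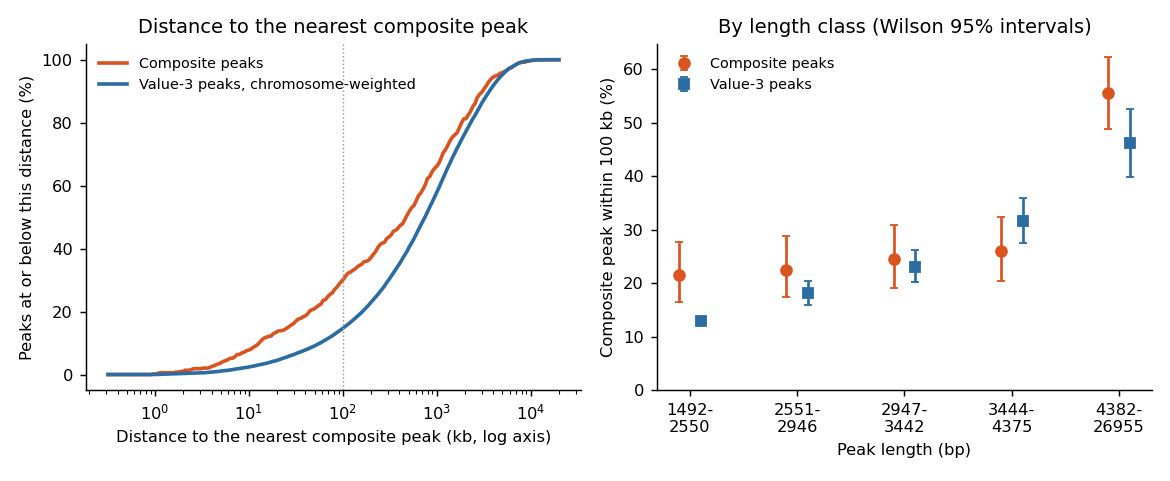
Left, cumulative share of peaks (vertical axis, %) at or below a given distance to the nearest composite peak (horizontal axis, kb, log scale), for composite peaks and for value-3 peaks weighted by chromosome, with a dotted line at 100 kb, where the shares are 30.1% and 14.7%. Right, share of peaks with a composite peak within 100 kb (vertical axis, %) in 5 classes of length (horizontal axis, bp), with Wilson 95% intervals. Value-3 peaks are not weighted by chromosome in this panel. Both kinds of peak rise with length, to 55.6% and 46.2% in the longest class.

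Linked by gaps of at most 100 kb, 307 composite peaks formed 106 chains and 714 stood alone. Of the chains, 65 were pairs, 28 had 3 or 4 members and 13 had 5 or more, the last with 84 composite peaks on 8 chromosomes. The chain with the most members, at chr19:27666539-28004162, held 9 composite peaks and 21 other peaks in 338 kb, with a median length of 5497 bp among the composite ones. Chains of 8 followed at chr16:22010926-22140016, over 129 kb, and at chr1:39013949-39268661, over 255 kb. On chromosome 19, 44 of the 64 composite peaks stood in 11 chains. The closest pair lay at chr14:46630269-46646021 and chr14:46646937-46656112, only 915 bp apart, with lengths of 15753 and 9176 bp and values of 4 and 5.

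The number of other peaks within 100 kb was slightly higher around composite peaks than around peaks with a value of 3. Counted from the edges of each peak, the median was 19 (95% interval 19 to 20), with quartiles of 15 and 25, against a median of 18 and quartiles of 14 and 22 for value-3 peaks matched on chromosome. The means were 19.9 (19.5 to 20.4) and 18.0. The difference therefore amounted to 1 peak in the median and 1.92 in the mean, with the value-3 mean below the interval of the composite mean. Single composite peaks varied widely, with an SD of 7.37. With only the longest composite peak of each chain kept, since members of a chain share neighbours, the difference in the mean was 0.859 over 820 composite peaks. The peaks dropped all had a composite peak within 100 kb, itself among the peaks counted, so this fall is partly built in. On 16 of the 20 chromosomes the median was higher for composite peaks, on 2 it was equal and on 2 lower. When value-3 peaks were weighted by chromosome and length class, both medians were 19, and the means were 19.9 (19.5 to 20.4) and 18.8, so that a difference of 1.12 in the mean was left that the whole-number median does not show. In the 3 finer matches both medians were again 19 and the difference in the mean was 1.18, 1.19 and 1.02.

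The difference was widest in crowded places. At least 30 other peaks surrounded 101 composite peaks, 9.89% (8.21 to 11.9%), against 3.81% of the value-3 peaks matched on chromosome. Against value-3 peaks matched also on length, the shares were 9.82% (8.14 to 11.8%) and 8.17%, which lies just inside the interval. In the finer matches the value-3 shares were 7.74%, 7.88% and 8.14%, just below the interval of 8.21 to 11.9%. At the sparse end, 17 composite peaks, 1.67% (1.04 to 2.65%), had at most 5 other peaks, against 2.01%. Composite peaks were thus more frequent among the most crowded positions when matched on chromosome, but with length matched too the value-3 share lay close to the edge of the interval, on either side of it depending on the match, and the sparse ends did not differ beyond the interval.

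The surrounding peaks were also counted by their own value. On average, 6.84 ± 5.42 (SD, n = 1021) value-3 peaks lay within 100 kb of a composite peak, against 4.91 for value-3 peaks matched on chromosome, and 0.631 ± 1.23 composite peaks against 0.227. Peaks with a value of 1 were slightly fewer, 6.84 ± 3.51 against 7.27, and those with a value of 2 about as many, 5.62 ± 3.15 against 5.61. Matched on chromosome alone, the additional peaks around composite peaks were thus those with values of 3 or more. Matched also on length, the difference in the mean was 0.715 for value-3 neighbours instead of 1.93, 0.116 for composite neighbours instead of 0.404, 0.274 for neighbours with a value of 2 and 0.0105 for those with a value of 1. In the finer matches the difference for value-3 neighbours was 0.627, 0.679 and 0.567. Most of the difference in value-3 and composite neighbours was thus absent with length matched, and the lower number of value-1 neighbours was not seen there. For both kinds of neighbour, the mean around value-3 peaks still lay below the interval around composite peaks in every match on length. The same held for neighbours with a value of 2, with differences of 0.379, 0.366 and 0.323 in the finer matches.

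**Figure D4:**
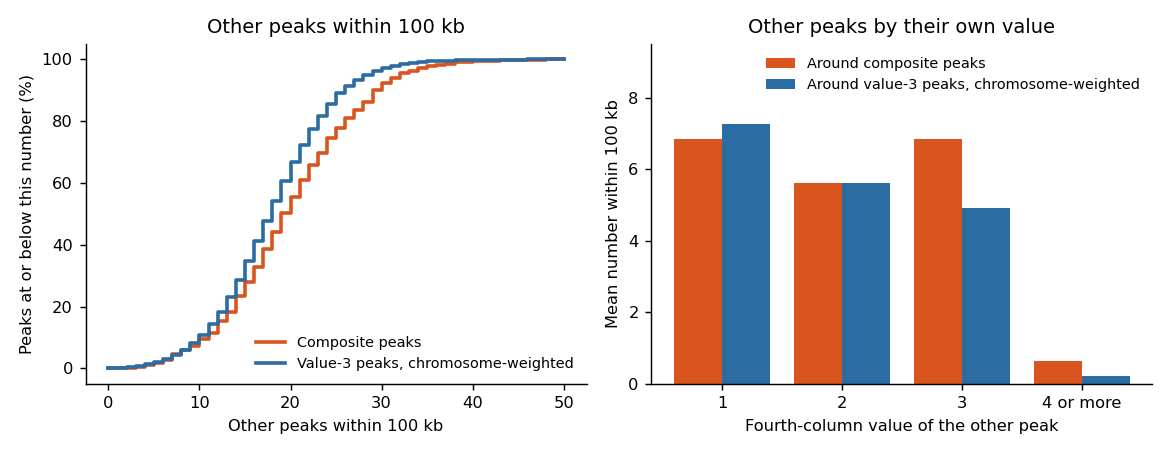
Left, cumulative share of peaks (vertical axis, %) with at most a given number of other peaks within 100 kb (horizontal axis), for composite peaks (median 19) and for value-3 peaks weighted by chromosome (median 18). Right, mean number of other peaks within 100 kb (vertical axis) by their own fourth-column value (horizontal axis), where bars are means over peaks; value-3 neighbours average 6.84 around composite peaks and 4.91 around value-3 peaks.

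Directly adjoining peaks were compared with matching on chromosome alone. Of 2041 peaks next to a composite peak on either side, 33.8% (31.7 to 35.8%) had a value of 3 and 68, or 3.33% (2.6 to 4.2%), were themselves composite. For peaks adjoining value-3 peaks, matched on chromosome, the shares were 27.6% and 1.09%. Adjoining peaks with a value of 1 made up 35.1% (33.1 to 37.2%) against 40.3%. A composite peak was thus more often flanked by peaks with a value of 3 or more than a value-3 peak was.

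The gap to the nearest peak of any value was shorter for composite peaks. Its median was 4449 bp (95% interval 4202 to 4659 bp) against 5297 bp for value-3 peaks matched on chromosome, and 4453 bp (4219 to 4659 bp) against 4836 bp when they were matched on length too. A nearest peak within 2000 bp was found for 223 composite peaks, 21.8% (19.4 to 24.5%), against 14.5%, and against 15.4% with matching on length. In the finer matches the median was 4783 to 4795 bp and the share 16.4%, 16.8% and 16.3%. Both lay outside the intervals of the composite peaks under every match tried, although the matched value-3 figures have no interval of their own. The smallest gap was 371 bp, and 18 composite peaks had a neighbour no more than 1000 bp away.

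Single composite peaks spanned the whole range of surroundings. The 3 with the most other peaks within 100 kb all lay near the start of chromosome 19, at chr19:362817-367376 with 48, chr19:379238-383205 with 47 and chr19:350212-357492 with 46. They share most of those neighbours and so are not separate examples. Fewest were found around chr14:95682214-95687582, a peak of 5369 bp with a value of 5 and only 1 other peak within 100 kb. Next came 3 peaks with 3 others each, at chr14:95084150-95090453 with a value of 6, at chr15:107159515-107166810 with a value of 4, and at chr4:46878059-46880833 with a value of 4. A high value thus occurred in nearly empty stretches as well.

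**Figure D5:**
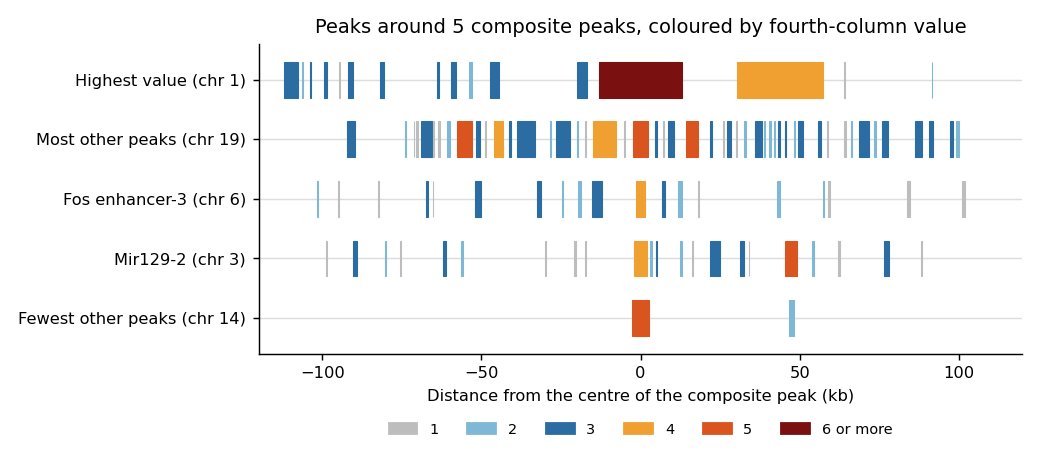
Peaks within 100 kb of 5 composite peaks, each row centred on 1 of them, by distance from its centre (horizontal axis, kb) and coloured by fourth-column value. The rows hold 15 other peaks around the peak with a value of 10, 48 around the most crowded, 18 at Fos enhancer-3, 21 at Mir129-2 and 1 around the most isolated.

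Composite peaks were then compared with enhancers listed by the study. A TAPE is a transcriptionally active putative enhancer, a region of open chromatin away from genes from which RNA is transcribed on both strands, and activity-regulated TAPEs are those with transcription that changed when neurons were depolarized. Of 94 activity-regulated TAPEs on chromosomes 1 to 20, 4 had the start and end of a composite peak, 4.26% of that list and 3.92 per 1000 composite peaks (1.52 to 10.0). A value of 3 was carried by 61 of them, 1.74 per 1000 peaks with that value (1.35 to 2.23), and the rate over all peaks was 0.502 per 1000, with 0.380 at a value of 2 and 0.0661 at 1. With lengths between the quartiles of the composite peaks, the rates were 7.81 per 1000 composite peaks (3.04 to 19.9) and 3.19 per 1000 value-3 peaks (1.46 to 6.94). The intervals of composite and value-3 peaks overlapped in both cases, and 4 peaks are too few to set the rates apart.

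Each of the 4 is paired with a gene in the list of TAPEs. Fos enhancer-3 had 18 other peaks within 100 kb, 7 with a value of 1, 6 with 2 and 5 with 3, and the nearest composite peak was 1825 kb away. The peak at chr3:83183347-83187154, with a value of 5 and a length of 3808 bp, is paired with Mir129-2, and the composite peak nearest to it, at 43.3 kb, was the one that covers Mir129-2 itself. Here both the enhancer and the gene listed with it were composite. The peak at chr1:52824015-52827422, with a value of 4 and 3408 bp, is paired with Fgfr1op, which encodes a centrosomal protein, and had 24 other peaks within 100 kb. The peak at chr9:105030206-105033271, with a value of 4 and 3066 bp, is paired with Slco6b1, of the organic anion transporter family, and had 23. Of the 4, only the peak paired with Mir129-2 had another composite peak within 100 kb.

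Of 387 cortex-selective TAPEs on chromosomes 1 to 20, which are TAPEs with more transcription in cortical than in the other cultures, 10 were composite peaks. This was 2.58% of the list and 9.79 per 1000 composite peaks (5.33 to 17.9), against 150 with a value of 3, or 4.28 per 1000 (3.65 to 5.02). Over all peaks the rate was 2.07 per 1000, with 2.21 at a value of 2 and 1.03 at 1. The intervals of composite and value-3 peaks did not overlap. Among peaks with a length between the quartiles of the composite peaks, however, the order was the other way, with 2 of 512 composite peaks, or 3.91 per 1000 (1.07 to 14.1), and 24 of 1882 value-3 peaks, or 12.8 per 1000 (8.58 to 18.9), so that the rates cannot be set apart within this range of lengths. The lists for hippocampus and striatum were not analysed here, so nothing is said of whether these rates are particular to cortex. The 3 longest of the 10 were the longest composite peak, chr1:39517901-39544855, then chr19:29178946-29190419 with 11474 bp and a value of 5, and chr12:283871-293372 with 9502 bp and a value of 6. These 3 had other composite peaks at 17.3, 11.0 and 19.8 kb. Of all 10, 6 had another within 100 kb and 4 had none. Among all composite peaks 307 of 1021 had one, 30.1%, and in the longest length class 55.6%. The 3 named peaks were picked for their length, and a difference for the 10 was not tested.

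Composite peaks at gene starts could be looked up only for 87 genes with a listed span on Rn6, those paired with activity-regulated TAPEs. The start of 48 of these genes lay in a peak with a value of 3, that of 6 in a peak with a value of 1 or 2, and that of 3 in a composite peak, while 30 lay in no peak. For scale, composite peaks were 0.545% of all peaks and 2.43% of the sequence that peaks covered. A count of 3 is too small for a comparison. The 3 were Nfil3, Mir129-2 and Grasp, which encodes a scaffold protein of the postsynaptic density that binds metabotropic glutamate receptors and is named Tamalin in RefSeq. The peak over the start of Grasp, at chr7:142867169-142870617, had a value of 5, a length of 3449 bp and 29 other peaks within 100 kb. The Nfil3 peak had 26 and the Mir129-2 peak 21. All 3 numbers lay above the median of 19 for composite peaks, and the nearest composite peak was 1401, 162 and 43.3 kb away. The 48 value-3 peaks at gene starts are not set beside them here, so nothing is read from this about gene starts.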

How the data were processed

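The authors trimmed reads with Trim Galore 0.4.5, aligned them to Rn6 with Bowtie2 2.3.4.2, handled alignments with SAMtools 1.9, pooled the libraries of each culture system, called peaks with MACS2, merged those no more than 1000 bp apart within a culture system and combined the 3 sets. The deposited list gives chromosome, start, end and, in column 4, a score that the authors do not describe. The list holds 0 columns of values per library, so depth and replicate spread are unknown.

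Distances were measured between peak edges. Value-3 peaks were weighted by chromosome, and in an alternative by chromosome and 5 length classes within the range of composite lengths, or by 20 or 50 length classes, with chromosome left out or matched in its totals (20 classes only). Intervals are Wilson intervals for shares and order-statistic intervals for medians, and for means 95% normal intervals. Weighted value-3 figures have no interval. TAPEs were matched by identical start and end. Gene spans and guides came from the study's lists, RefSeq names and sequences from GRCr8. The 3 genes under composite peaks were matched by symbol or synonym, and sequences are printed for Mir129-2 and Nfil3 only. Functions were tested on simulated data. Named peaks follow a rule: the highest 2 values, 5 longest, 3 shortest, most and fewest neighbours, closest pair, longest chain, and TAPEs. Members and lists were chosen with earlier results of these data known. Python 3.11.15, numpy 2.4.6, pandas 2.3.3, scipy 1.17.1 and matplotlib 3.10.9 were used.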

Additional observations from a re-analysis of the deposited data

Results flagged for a closer look

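Peaks with a value of 4 or more were also listed outside chromosomes 1 to 20, in sequences that the comparisons did not use. Chromosome X held 28 of them among 4404 peaks, 6.36 per 1000 (Wilson 95% interval 4.40 to 9.17), with a median length of 3523 bp. Scaffolds without a place on a chromosome held 10 among 973 peaks, 10.3 per 1000 (5.59 to 18.8), on 8 scaffolds, and the longest measured 32062 bp with a value of 7. The interval of chromosome X holds the share of chromosomes 1 to 20, 5.45 per 1000, and that of the scaffolds lies just above it, a difference that was not tested. The mitochondrial sequence held 1, of 9733 bp.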

How the results depend on the processing

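No paired analysis was possible because peaks were called on pools of libraries and the list has no values per library, and for the same reason no replicate could be left out. Of 64 alternatives, 19 of them chosen after seeing the data, 41 left the value within its interval or, for counts, within 1.5 times. With a minimum value of 5 there were 237 composite peaks with a median length of 3968 bp, the ratio of chromosome 19 to all chromosomes rose from 2.37 to 3.82, and the median distance to the nearest such peak differed from that of value-3 peaks by -2522 kb instead of -277 kb (1196 against 3718 kb, instead of 472 against 748 kb). With the minimum value of 4 kept, the mean length of the 1021 composite peaks was 3754 bp, against their median of 3180 bp. Matched on length as well as chromosome, composite minus value-3 medians were 0 other peaks within 100 kb instead of 1, -41.2 kb to the nearest composite peak, and -383 bp instead of -848 bp to the nearest peak. With 20 length classes, 50 length classes, and chromosome with 20 classes in totals, these were 0, 0 and 0 peaks, -48.9, -60.4 and -25.5 kb, and -344, -334 and -346 bp, and the difference in mean number of other peaks was 1.18, 1.19 and 1.02. A window of 250 kb gave a difference of 3 peaks. With 1 composite peak per chain, the difference in mean number of other peaks was 0.859 instead of 1.92, and with chromosome and 5 length classes 1.12. Leaving out each chromosome in turn gave differences in median of 1 to 2. None of the 64 turned a direction, but the rates of cortex-selective TAPEs, which were not among them, changed order among lengths between the composite quartiles, to 3.91 per 1000 composite and 12.8 per 1000 value-3 peaks. The cause of these changes was not tested. Depth limits which peaks were called and joined, and it is unknown here.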
